A study of Mus musculus with 8 samples.

Results

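Conventional dendritic cells of the spleen were compared between mice tagged with hashtags 1 to 4 and mice tagged with hashtags 5 to 8. A hashtag is an antibody with a DNA barcode that marks all cells of a sample before samples are pooled. Cells were taken as dendritic where the MHC class II genes H2-Aa, H2-Ab1 and H2-Eb1 and the invariant chain gene Cd74 together made up at least 0.5% of the unique molecular identifiers (UMIs, counted RNA molecules). They also had to hold at least 1 UMI of Flt3, the receptor of a dendritic cell growth factor, and none of Siglech or Cd79a. These RNA levels are the measured values the cells were chosen by, so they are described below without a test. A hashtag was assigned where its antibody count reached 20 and exceeded the next highest by a factor of 3 or more. Of 6105 spleen cells, among 20012 cells of the series, 617 (10.1%) met the rule and 540 of these had a hashtag. Hashtags 1 to 4 held 63, 93, 186 and 42 of these cells, 384 in all, and hashtags 5 to 8 held 14, 61, 32 and 49, 156 in all. Hashtag 5 is therefore the thinnest sum.

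All mice were C57BL/6J females that carried a subcutaneous tumor of MOPC cells, a mouse oropharyngeal carcinoma line; their age is not stated in the labels. Wild-type mice and mice of a knockout model called Genotype_02 contributed to the spleen sample, but the labels name no deleted gene and do not say which hashtag marked which mouse. The genotypes behind both groups are therefore unknown, and the split into 1 to 4 and 5 to 8 is that of the tag numbers. Each hashtag was treated as 1 mouse, which is an assumption, and p-values measure the spread between hashtags. All came from 1 spleen library. The sort kept living cells that were Gr1-positive without lineage markers, or Gr1-negative and cKit-positive, and target cell numbers were evened out between conditions beforehand, so the shares below are those of a sorted mixture. Dendritic cells reached the data only as far as they passed these gates.

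Conventional dendritic cells take up proteins, present their fragments on MHC molecules and prime T cells. The cDC1 subset excels at presenting internalised antigen on MHC class I, and the cDC2 subset mainly presents to CD4 T cells. Type I interferons bind a receptor made of Ifnar1 and Ifnar2, which switches on a large set of antiviral genes. In dendritic cells this pathway is known to support maturation and cross-presentation.

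The labelled cell type was checked against dendritic cell genes that the rule did not use, and these were present. Zbtb46, a transcription factor of conventional dendritic cells, stood at 150 CPM (CPM is the number of UMIs of a gene divided by all gene UMIs of the sum and put on one common scale) in the 540 cells and at 10.7 CPM in the 5070 other spleen cells with a hashtag. Batf3 stood at 260 and 16.9 CPM, and Ciita, the activator of class II genes, at 466 and 26.7 CPM. Ciita is not an independent check, because the rule chose cells by class II RNA. Plasmacytoid dendritic cell markers (12 measured, 3 at 0, with Siglech at 0 by the rule) summed to 242 and 164 CPM. By the number of subset markers detected, 283 cells were cDC1-like, 228 cDC2-like and 29 lay between, a division chosen after the data were seen. The subset markers made this division, so their levels in the subsets restate it. Just inside the rule, 19 cells had a class II share under 1% and the lowest had 0.507%. Just outside it, 14 spleen cells lay between 0.25 and 0.5%, with the highest at 0.490%. A single Flt3 UMI was held by 97 members, and 184 further cells met every criterion except Flt3.

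RNA of other cells was present in the sums. Neutrophil markers (14 genes, all detected) summed to 413, 2099, 5427 and 10500 CPM in hashtags 1 to 4, against 3394, 2407, 394 and 1320 CPM in hashtags 5 to 8. The ranges overlapped. The same markers summed to 85561 CPM in the other spleen cells. Of the 540 dendritic cells, 305 held at least 3 neutrophil markers. Whether this RNA is free RNA or comes from doublets was not tested. B and plasma cell markers (12 measured, 2 at 0) summed to 231 CPM in the dendritic cells and 5408 CPM in the other cells. Per hashtag their sum was 218 to 255 CPM in hashtags 1 to 4 and 155 to 262 CPM in hashtags 5 to 8. Of the dendritic cells, 95 held at least 3 of these markers, and Ighm, the heavy chain of IgM, was detected in 80.2% of dendritic and 40.1% of other cells. Its level went the other way, with 155 CPM in the dendritic and 616 CPM in the other cells. Of 7 basophil and mast cell genes, 5 were at 0. The median depth was 14384 UMIs per dendritic cell and 3170 per other cell, and 1 dendritic cell barcode also occurred in another library.

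Progenitor markers (9 measured, 1 at 0) also moved with the groups. They summed to 179, 163, 175 and 177 CPM in hashtags 1 to 4, against 73.0, 143, 145 and 131 CPM in hashtags 5 to 8, without overlap (means 174 ± 7.06 and 123 ± 34.1, SD, n = 4 each; exact permutation p = 0.0286, adjusted 0.0714). Over all dendritic cells, Kit made up 128 and Sox4 22.8 of the 161 CPM of this sum. Kit was detected in 73.3% of dendritic and 7.83% of other cells. Its own RNA was not called in the dendritic cells (edgeR adjusted p = 0.394). The part of the progenitor markers in the results below was not tested. Markers of mature, Ccr7-positive dendritic cells (13 measured, none at 0) summed to 596, 476, 587 and 402 CPM in hashtags 1 to 4, against 2883, 529, 132 and 153 CPM in hashtags 5 to 8. Hashtag 5 stood apart from the other 7, and the groups overlapped (exact permutation p = 0.943, adjusted 0.943). In hashtag 5, 2 of 14 cells held at least 2 of the genes Ccr7, Fscn1 and Il4i1.

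Dendritic cells made up a larger share of the spleen sample in hashtags 1 to 4. The share was 10.3, 12.9, 14.7 and 8.68% in hashtags 1 to 4, against 2.67, 7.61, 6.64 and 6.81% in hashtags 5 to 8. The ranges did not overlap, although hashtags 4 and 6 lay close together. The means were 11.6% ± 2.66 and 5.93% ± 2.21 (SD, n = 4 each), with p = 0.0286 in a two-sided exact permutation test, the smallest p that 4 against 4 allows, and 0.0714 after Benjamini-Hochberg adjustment over the 15 cell-level measures compared. Without any single one of hashtags 5 to 8 the exact p was 0.0571, with differences of 4.63 to 6.28 percentage points.

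Both marker-defined subsets had higher mean shares of the spleen sample in hashtags 1 to 4, but with overlapping values. cDC1-like cells averaged 5.88% ± 1.18 in hashtags 1 to 4 and 3.54% ± 1.37 in hashtags 5 to 8 (SD, n = 4 each; exact permutation p = 0.0571, adjusted 0.107). cDC2-like cells averaged 5.08% ± 1.38 and 2.14% ± 1.32 (n = 4 each; exact permutation p = 0.0571, adjusted 0.107). Cells with neutrophil markers were the other large part of the sample, 71.9, 74.2, 69.8 and 76.7% in hashtags 1 to 4 and 87.8, 78.3, 79.5 and 80.0% in hashtags 5 to 8. Outside these cells the dendritic share was 36.8, 50, 48.6 and 37.2% in hashtags 1 to 4, against 21.9, 35.1, 32.3 and 34.0% in hashtags 5 to 8, again without overlap. The RNA of Kit, the receptor on which the sort selected, was also higher in the other spleen cells of hashtags 1 to 4, with a log2 fold change of 0.94 ± 0.19 (SE; edgeR adjusted p = 0.0172). Whether the sort sets the difference in dendritic cell share was not tested.

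Depth moved with the groups in the opposite direction. The median was 13285, 13506, 14294 and 13139 UMIs per dendritic cell in hashtags 1 to 4, against 14915, 15419, 15460 and 16487 in hashtags 5 to 8. The ranges did not overlap (means 13556 ± 515 and 15570 ± 660, SD, n = 4 each; exact permutation p = 0.0286, adjusted 0.0714). With every spleen cell thinned to 1000 UMIs before the rule, so that Flt3 was often missed, the dendritic share was 3.23, 3.53, 4.37 and 3.59% in hashtags 1 to 4, against 0.386, 2.15, 0.632 and 0.986% in hashtags 5 to 8. Cells shallower than that were left out, 11 to 33 per hashtag in hashtags 1 to 4 and 6 to 13 in hashtags 5 to 8. Thinned and without the Flt3 criterion the shares were 15.6, 15.8, 18.9 and 11.8% in hashtags 1 to 4, and 4.25, 11.9, 9.26 and 10.6% in hashtags 5 to 8, so that hashtags 4 and 6 changed order (exact permutation p = 0.0571).

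Within the dendritic cells the balance of subsets did not differ beyond the spread between hashtags. Of cDC1- and cDC2-like cells, 54.8, 55.2, 50.6 and 55.3% were cDC1-like in hashtags 1 to 4, against 64.3, 46.7, 65.5 and 76.6% in hashtags 5 to 8. The first 4 values lay close together and the other 4 spread around them. The means were 54.0% ± 2.27 and 63.3% ± 12.4 (SD, n = 4 each; exact permutation p = 0.143, adjusted 0.238). Without hashtag 6 the difference was -14.8 percentage points with an unadjusted exact permutation p of 0.0286. No other omission of a hashtag gave a p under 0.05, so that this one mouse decides the call. With cDC1-like cells taken by Xcr1 and Clec9a alone, as a share of all dendritic cells, the difference was -3.48 points (exact permutation p = 0.714). With the dendritic cells thinned to 5000 UMIs the difference was -9.74 points.

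**Figure D1:**
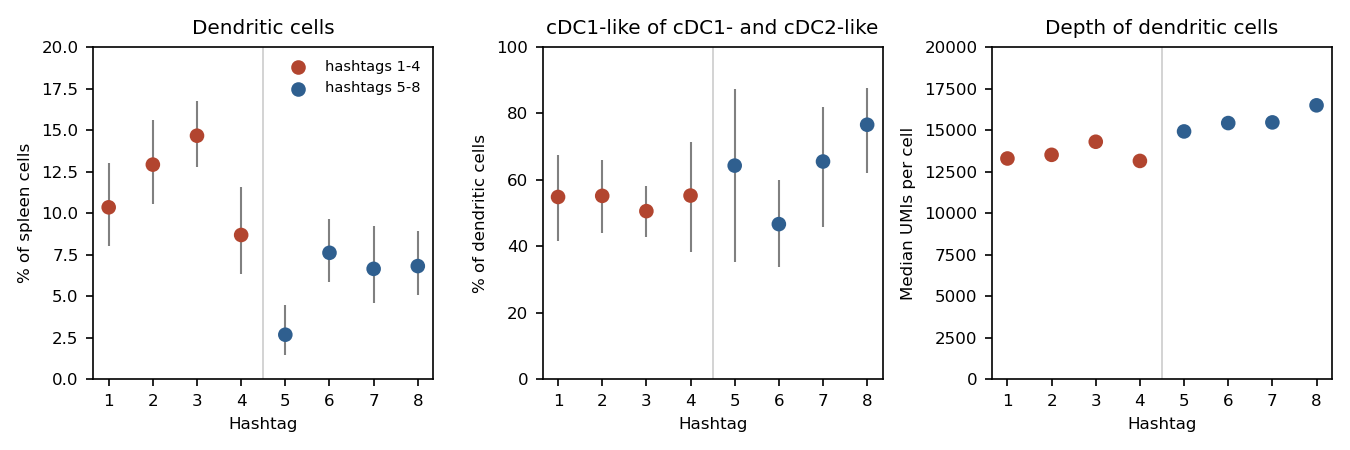
Dendritic cells per hashtag, with hashtags 1 to 4 in red and 5 to 8 in blue: their share of spleen cells (left, %), the cDC1-like part of cDC1- and cDC2-like cells (middle, %), and the median UMIs per dendritic cell (right). Bars are exact 95% binomial intervals, which cover counting error only; the shares on the left lie between 8.68 and 14.7% in red and between 2.67 and 7.61% in blue.

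In gene expression, 14 of 30 tested interferon response genes were higher in hashtags 1 to 4, with log2 fold changes of 1.02 to 3.33. Counts were summed over the dendritic cells of each hashtag, and 7700 genes whose sums reached 100 UMIs entered a quasi-likelihood test in edgeR. A gene was called at a Benjamini-Hochberg adjusted p under 0.05, which 51 genes reached (0.662%). In hashtags 1 to 4, 37 genes were higher (0.481% of those tested) and 14 were lower (0.182%). DESeq2 called 35 higher and 27 lower, so that the higher genes were 72.5% of the calls with edgeR and 56.5% with DESeq2. The genes were partly others: DESeq2 called 21 of the 37 higher and 12 of the 14 lower genes of edgeR. The median log2 fold change over all genes was -0.01. Of 48 interferon response genes in the table, 30 passed the filter on low counts and 14 were called higher, none lower, and 29 had a positive log2 fold change, with a median of 1.27. Some members passed the filter only through hashtags 1 to 4, which held more cells. Xaf1 had 124 UMIs there and 5 in hashtags 5 to 8, and Ly6a 133 and 9. The numbers of calls, positive values and members without overlap, and the median, therefore depend in part on the filter. The 2 groups of hashtags did not overlap in 18 of these 30 genes, while over all genes 255 (3.31%) lay wholly higher and 282 (3.66%) wholly lower in hashtags 1 to 4. The numbers of calls depended on single mice: leaving out hashtag 1, 2, 3, 4, 7 or 8 gave 20, 17, 10, 19, 18 and 13 genes higher, and leaving out hashtag 5 or 6 gave 63 and 76. The genes lower then numbered 3, 6, 4, 3, 10 and 3, and 35 and 22 without hashtags 5 and 6.

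Of the 51 called genes, 13 were called in all 8 fits that left out 1 hashtag, namely Ifi27l2a, Irf7, Slfn5, Eif2ak2, Trim30a, Ifi207, Ly6e, Sp100, Rnf213 and Acadl among the higher genes and Gm26740, Gm47283 and Lgals1 among the lower ones. Slfn8 and Ifi27 were called in all 7 fits that could test them. Xaf1 (adjusted p = 0.0824) and Lgals3bp (0.0618) lost their call only without hashtag 8. The other 34 lost it in at least 2 of these fits, many of them in most, and each of them kept its direction. Dpp4, Hfe and Parp12 were called in only 1 of the fits, and Tppp3 in none that tested it. Isg15, for example, was called only without hashtag 5 or 6, with an edgeR adjusted p of up to 0.223, and Ly6a was lost without hashtag 1, 4, 7 or 8 with an adjusted p of up to 0.148.

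Promoter sequences of a few called genes are shown because they carry the letter pattern of GAAA, any 2 bases and GAAA again, which resembles the sites bound by interferon regulatory factors. Each window runs from 250 bases before to 50 bases after the RefSeq start site of the GRCm38.p6 build, on the strand of the gene, and capitals mark matches to the pattern or to its reverse complement, TTTC, any 2 bases and TTTC. Isg15 (chr4:156200769-156201068, minus strand) holds 3 overlapping matches that span bases -78 to -57 from the start site. Slfn5 (chr11:82951852-82952151, plus strand) has a match at -155, Slfn8 (chr11:83020761-83021060, minus strand) at -48 and Ifi207 (chr1:173741760-173742059, minus strand) at -41.
Isg15: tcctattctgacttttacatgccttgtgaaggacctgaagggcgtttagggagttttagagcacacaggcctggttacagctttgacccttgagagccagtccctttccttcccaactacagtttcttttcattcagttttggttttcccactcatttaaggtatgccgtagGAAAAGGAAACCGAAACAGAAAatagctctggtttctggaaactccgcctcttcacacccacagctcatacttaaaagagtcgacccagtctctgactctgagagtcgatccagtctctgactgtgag
Slfn5: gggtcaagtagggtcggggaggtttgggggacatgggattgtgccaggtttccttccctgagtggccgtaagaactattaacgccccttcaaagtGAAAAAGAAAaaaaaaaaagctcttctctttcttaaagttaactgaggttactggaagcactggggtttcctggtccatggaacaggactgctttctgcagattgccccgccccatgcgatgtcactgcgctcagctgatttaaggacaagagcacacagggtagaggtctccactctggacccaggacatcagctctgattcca
Slfn8: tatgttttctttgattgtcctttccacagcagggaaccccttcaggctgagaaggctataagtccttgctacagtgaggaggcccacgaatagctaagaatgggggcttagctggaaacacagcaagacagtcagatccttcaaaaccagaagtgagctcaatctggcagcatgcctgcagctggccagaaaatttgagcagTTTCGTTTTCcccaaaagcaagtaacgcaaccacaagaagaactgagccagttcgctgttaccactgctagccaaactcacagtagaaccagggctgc
Ifi207: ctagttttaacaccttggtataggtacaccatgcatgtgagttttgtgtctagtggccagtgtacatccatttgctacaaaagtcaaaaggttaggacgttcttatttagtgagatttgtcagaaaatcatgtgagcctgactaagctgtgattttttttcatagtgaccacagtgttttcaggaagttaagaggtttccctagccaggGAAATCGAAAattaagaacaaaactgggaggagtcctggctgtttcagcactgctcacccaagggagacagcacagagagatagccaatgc
RefSeq promoters were matched by symbol for 28 of the 37 genes called higher, and 12 of these genes (42.9%) held the pattern in at least 1 promoter. Among the 14 called genes of the interferon list 7 of 10 with a promoter held it, and among the 14 genes called lower 0 of 9. The share over all 27025 genes with a promoter was 3.99%, and over the tested genes 4.18%. A match describes the letters and is no evidence of binding.

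Ifi27l2a, which encodes a small interferon-induced membrane protein, was the most abundant of the 14 called interferon response genes in hashtags 1 to 4. It stood at 209, 311, 199 and 322 CPM in hashtags 1 to 4, against 41.1, 59.7, 19.1 and 7.09 CPM in hashtags 5 to 8. The groups were far apart, with a log2 fold change of 3.0 ± 0.38 (SE; edgeR adjusted p = 0.00147). Irf7, the transcription factor that amplifies type I interferon production, stood at 37.9, 42.9, 43.9 and 45.5 CPM in hashtags 1 to 4 and at 9.12, 4.98, 15.3 and 5.91 CPM in hashtags 5 to 8. Its values were nearly level within hashtags 1 to 4 and well below them in every mouse of the other group (2.42 ± 0.29, edgeR adjusted p = 0.00109).

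Members of the Schlafen family, which restrict growth and viral translation, moved alike. Slfn5 stood at 96.3, 123, 104 and 135 CPM in hashtags 1 to 4, against 18.2, 22.9, 21.0 and 34.3 CPM in hashtags 5 to 8 (2.14 ± 0.20, edgeR adjusted p = 7.29e-05). Slfn8 stood at 21.4, 35.3, 32.4 and 27.6 CPM in hashtags 1 to 4 and at 9.12, 3.98, 1.91 and 4.73 CPM in hashtags 5 to 8 (2.77 ± 0.35, edgeR adjusted p = 0.00152). In both genes the groups did not overlap, though reads of the near-identical Schlafen copies may be split between genes, which makes the Slfn8 value uncertain.

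Eif2ak2, Ddx58 and Ifih1 of the interferon list were also higher in hashtags 1 to 4. Eif2ak2, the kinase PKR that stops translation on double-stranded RNA, stood at 60.3, 52.1, 54.2 and 58.5 CPM in hashtags 1 to 4, against 13.7, 20.9, 17.2 and 14.2 CPM in hashtags 5 to 8 (1.69 ± 0.20, edgeR adjusted p = 0.000939). Ddx58, the receptor RIG-I, stood at 10.7, 19.9, 22.8 and 22.8 CPM in hashtags 1 to 4 and at 4.56, 4.98, 1.91 and 2.36 CPM in hashtags 5 to 8 (2.44 ± 0.43, edgeR adjusted p = 0.0217). It rests on 9 UMIs in hashtags 5 to 8 together. Ifih1, the receptor MDA5, averaged 34.1 ± 2.16 CPM in hashtags 1 to 4 and 14.2 ± 4.98 CPM in hashtags 5 to 8 (SD, n = 4 each; log2 1.25 ± 0.24, edgeR adjusted p = 0.0334).

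Effectors and regulators of the response followed. Isg15, the ubiquitin-like modifier, stood at 31.1, 29.1, 51.8 and 48.8 CPM in hashtags 1 to 4, against 27.4, 11.9, 0 and 2.36 CPM in hashtags 5 to 8 (2.37 ± 0.50, edgeR adjusted p = 0.0486). Hashtag 5 came within 2 CPM of hashtag 2, so that the groups were only just separate. Usp18, which removes Isg15 and damps receptor signalling, averaged 26.0 ± 4.17 CPM in hashtags 1 to 4 and 5.51 ± 5.98 CPM in hashtags 5 to 8 (SD, n = 4 each; 2.52 ± 0.46, edgeR adjusted p = 0.0245). Xaf1, an interferon-induced partner of an apoptosis inhibitor, had 124 UMIs in hashtags 1 to 4 and 5 in hashtags 5 to 8 (3.33 ± 0.55, edgeR adjusted p = 0.0138). Irf9, a DNA-binding factor of the interferon pathway, averaged 67.9 ± 11.8 and 28.7 ± 9.56 CPM (log2 1.22 ± 0.22, edgeR adjusted p = 0.0246). Trim30a, a regulator of Toll-like receptor signalling, averaged 196 ± 18.6 and 100 ± 17.1 CPM (log2 1.02 ± 0.14, edgeR adjusted p = 0.00195). Parp14, an ADP-ribosyltransferase, and Ly6a, which encodes the surface protein Sca-1, completed the called list members with log2 fold changes of 1.53 ± 0.31 and 2.79 ± 0.54 (edgeR adjusted p = 0.0399 and 0.0308).

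Some well-known interferon targets did not pass. Rtp4, a chaperone of membrane receptors, stood at 1.95, 22.2, 22.5 and 27.6 CPM in hashtags 1 to 4, against 0, 0, 1.91 and 2.36 CPM in hashtags 5 to 8 (edgeR adjusted p = 0.0726). Oasl2 stood at 0, 20.7, 19.5 and 19.5 CPM in hashtags 1 to 4 and at 4.56, 0.995, 1.91 and 7.09 CPM in hashtags 5 to 8 (edgeR adjusted p = 0.313). In both genes hashtag 1 lay apart from hashtags 2 to 4. Hashtag 1 also had the lowest sum of neutrophil markers of its group, 413 CPM, and the part of neutrophil RNA in these values was not tested. The signal transducer gene Stat2 (log2 0.48 ± 0.22, edgeR adjusted p = 0.429) and the tetherin gene Bst2 (0.19 ± 0.15, adjusted p = 0.642) were not called. Irf1, a transcription factor induced by several cytokines, was the tested list member with a negative value (-0.43 ± 0.35, edgeR adjusted p = 0.672). Other known targets did not reach 100 UMIs and were not tested. Pooled over hashtags 1 to 4 and over 5 to 8, Ifit3 stood at 10.2 and 0 CPM and Oas1a at 9.87 and 0. Ifit1 stood at 7.36 and 0.386 CPM and Rsad2 at 9.04 and 1.54. Gbp2 (11.5 and 9.26 CPM) and Gbp3 (5.02 and 5.79) lay closer together.

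Ligands of the pathway were almost unseen. Among 20 interferon ligand genes measured, 19 had 0 UMIs in the dendritic cells of all 8 hashtags, and the remaining 1, Ifnk, had 2 UMIs in hashtags 1 to 4 and 0 in hashtags 5 to 8. A count of 0 limits what could be detected and does not show absence. The receptor gene Ifnar1 averaged 47.1 ± 9.39 CPM in hashtags 1 to 4 and 46.1 ± 11.1 CPM in hashtags 5 to 8 (SD, n = 4 each; log2 -0.01 ± 0.20, edgeR adjusted p = 1.000). In the other spleen cells its log2 fold change was -0.77 ± 0.14 (edgeR adjusted p = 0.00924), and the test of the difference between the cell sets gave an adjusted p of 0.232. Ifnar2 averaged 156 ± 25.6 and 140 ± 24.3 CPM (log2 0.13 ± 0.15, edgeR adjusted p = 0.802).

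**Figure D2:**
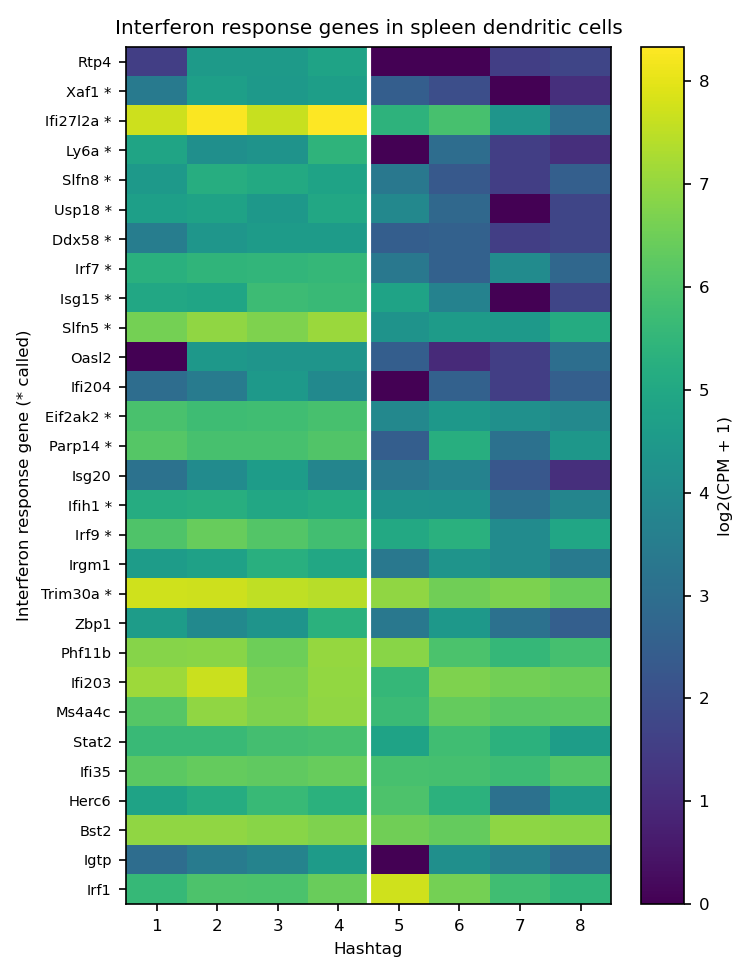
Heat map of 29 of the 30 tested interferon response genes (rows, ordered by log2 fold change, asterisk where called) in the dendritic cells of each hashtag (columns), coloured by log2(CPM + 1). The white line divides hashtags 1 to 4 from 5 to 8; 14 genes carry an asterisk, and Rtp4 and Oasl2 are dark in hashtag 1.

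Further genes called higher, outside the interferon list, included others known to respond to interferon. Ifi207, of the HIN-200 family of DNA-binding proteins, stood at 92.4, 129, 89.2 and 94.3 CPM in hashtags 1 to 4, against 18.2, 15.9, 11.5 and 9.46 CPM in hashtags 5 to 8 (2.94 ± 0.23, edgeR adjusted p = 1.20e-05). Its relative Ifi211 averaged 74.2 ± 12.9 and 31.1 ± 19.2 CPM (SD, n = 4 each; 1.52 ± 0.26, edgeR adjusted p = 0.0155), with hashtag 5 at 59.3 CPM just above hashtag 4 at 58.5 CPM. Counts of both are uncertain because reads of this gene family can be shared. Ly6e, a membrane protein that limits viral entry, was abundant and evenly shifted, with 992, 968, 969 and 1008 CPM in hashtags 1 to 4 and 675, 695, 686 and 608 CPM in hashtags 5 to 8 (0.56 ± 0.07, edgeR adjusted p = 0.00178). The nuclear body genes Sp100 (0.96 ± 0.14, edgeR adjusted p = 0.00359) and Pml (1.62 ± 0.29, adjusted p = 0.0218) were higher, as were Rnf213 (1.37 ± 0.20, 0.00498) and Parp12 (1.58 ± 0.32, 0.0406). Ifi27 (2.21 ± 0.29, edgeR adjusted p = 0.00177), Lgals3bp (2.82 ± 0.43, 0.0065) and Trim30d (1.08 ± 0.18, 0.0128) complete this group, and the Ifi27 and Trim30d counts may share reads with their neighbours Ifi27l2a and Trim30a.

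The remaining genes called higher had other known roles. Acadl, an enzyme of fatty acid oxidation, stood at 123, 117, 125 and 99.2 CPM in hashtags 1 to 4, against 54.7, 52.7, 63.1 and 54.4 CPM in hashtags 5 to 8 (1.07 ± 0.14, edgeR adjusted p = 0.00177). The groups were clearly separate. Cadm1, an adhesion molecule that marks cDC1, averaged 308 ± 52.6 and 160 ± 39.0 CPM (SD, n = 4 each; 0.91 ± 0.17, edgeR adjusted p = 0.0263), while the cDC1-like share was not higher in hashtags 1 to 4. Plac8 averaged 1223 ± 194 and 687 ± 196 CPM (0.81 ± 0.17, edgeR adjusted p = 0.0408). Log2 fold changes between 0.49 and 1.53 were found for the surface peptidase Dpp4, the kinase gene Cdk14, the growth factor receptor gene Flt1, the iron regulator Hfe, the kinase inhibitor Pkib, the cell death gene Pmaip1, the nuclear envelope gene Syne1 and Pstpip2 (edgeR adjusted p 0.0263 to 0.0444). The unnamed genes BC147527 and Gm34084 had log2 fold changes of 1.41 and 1.36.

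Among the 14 genes called lower in hashtags 1 to 4 were Lgals1, Tagln2, Anxa2, Myl12a and Actb. Lgals1, which encodes galectin-1, a sugar-binding protein that restrains T cells, stood at 162, 150, 132 and 159 CPM in hashtags 1 to 4, against 397, 283, 405 and 283 CPM in hashtags 5 to 8. No values overlapped (-1.16 ± 0.14, edgeR adjusted p = 0.00122). The actin-binding gene Tagln2 averaged 328 ± 39.1 CPM in hashtags 1 to 4 and 619 ± 159 CPM in hashtags 5 to 8 (SD, n = 4 each; -0.88 ± 0.16, edgeR adjusted p = 0.0243). The membrane-binding gene Anxa2 averaged 219 ± 26.5 and 439 ± 122 CPM (-0.97 ± 0.17, edgeR adjusted p = 0.0243), with hashtags 5 and 7 highest at 543 and 533 CPM. Without hashtag 5, where the mature dendritic cell markers were highest, Tagln2 had a log2 fold change of -0.75 and Anxa2 one of -0.86 (edgeR adjusted p = 0.0182 and 0.0214). Both genes lost their call without hashtag 1, 3, 4, 7 or 8, with an edgeR adjusted p of up to 0.097. Smaller decreases were found for the myosin light chain gene Myl12a (-0.59 ± 0.11), Actb, which encodes actin (-0.25 ± 0.05), the creatine kinase gene Ckb (-0.64 ± 0.12) and the membrane protein gene Emp3 (-0.63 ± 0.13), with edgeR adjusted p of 0.0243 to 0.0486. Tppp3, a tubulin-binding protein, had 41 UMIs in hashtags 1 to 4 and 64 in hashtags 5 to 8 (-1.95 ± 0.40, edgeR adjusted p = 0.0441).

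The class II pathway gave 1 call. Ifi30, the lysosomal reductase that opens disulfide bonds of antigens before class II loading, averaged 708 ± 31.6 CPM in hashtags 1 to 4 and 947 ± 75.3 CPM in hashtags 5 to 8 (SD, n = 4 each; -0.41 ± 0.08, edgeR adjusted p = 0.0308). Of the 10 class II pathway genes outside the rule, 7 had positive values and the median was 0.10. Of the genes used by the rule, described with no test, H2-Eb1 stood at 4753, 4877, 4637 and 5278 CPM in hashtags 1 to 4 and at 3973, 4211, 3878 and 3871 CPM in hashtags 5 to 8. H2-Ab1 stood at 6028, 6001, 5913 and 6509 CPM in hashtags 1 to 4 and at 5424, 5793, 5663 and 6351 CPM in hashtags 5 to 8. Flt3 averaged 323 ± 37.3 and 257 ± 18.9 CPM. H2afz, a histone variant, Rps27l, a ribosomal protein relative with near-identical copies, and A630089N07Rik were the other genes called lower (log2 -0.38, -0.52 and -1.36, with edgeR adjusted p of 0.0406, 0.0237 and 0.0272).

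The largest log2 fold changes among called genes belonged to 2 unnamed genes, singled out after their values were seen. Gm26740 (chr10:22186285-22306382) stood at 27.2, 20.7, 27.7 and 14.6 CPM in hashtags 1 to 4, against 251, 308, 281 and 272 CPM in hashtags 5 to 8 (-3.55 ± 0.16, edgeR adjusted p = 3.51e-08). Gm47283, for which the RefSeq table gave no position, stood at 2.92, 1.53, 0.991 and 0 CPM in hashtags 1 to 4 and at 45.6, 87.6, 91.8 and 91.1 CPM in hashtags 5 to 8 (-5.84 ± 0.35, edgeR adjusted p = 5.22e-07). Each gene separated all 4 mice of one group from all 4 of the other by a wide margin. The same held in the other spleen cells, where the log2 fold changes were -4.93 ± 0.17 and -5.13 ± 0.29 (edgeR adjusted p = 1.36e-08 and 3.48e-07).

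Most other lists showed no call. The cell cycle list had 29 tested genes with 0 called, 25 with negative values and a median of -0.28. Its proliferation marker Mki67 averaged 174 ± 24.7 CPM in hashtags 1 to 4 and 247 ± 22.0 CPM in hashtags 5 to 8 (SD, n = 4 each; -0.49 ± 0.12, edgeR adjusted p = 0.112). Depth per cell was also higher in hashtags 5 to 8, and its part was not tested. The lists of costimulation and checkpoint genes (11 tested, median 0.21), cytokines and chemokines (13, 0.21), MHC class I and cross-presentation (18, -0.08), lysosome and phagocytosis (23, -0.15), glycolysis and hypoxia (17, -0.21), unfolded protein response (17, -0.23) and pattern recognition (16, 0.15) had 0 calls each. At an unadjusted p under 0.05 these 8 lists had 10, 2, 2, 2, 4, 6, 3 and 3 genes, where 11.8% of all genes passed. B2m, the light chain of MHC class I, averaged 1471 ± 93.3 and 915 ± 285 CPM without overlap, with an edgeR adjusted p of 0.0886. It was called in 6 of 18 alternative settings, with edgeR or DESeq2 adjusted p between 0.0101 and 0.649, among them the cells without markers of other types (log2 0.93, edgeR adjusted p = 0.0465). Among the transcription factors, Irf8, which sustains cDC1, averaged 864 ± 112 and 1040 ± 175 CPM (-0.27 ± 0.12, edgeR adjusted p = 0.401).

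**Figure D3:**
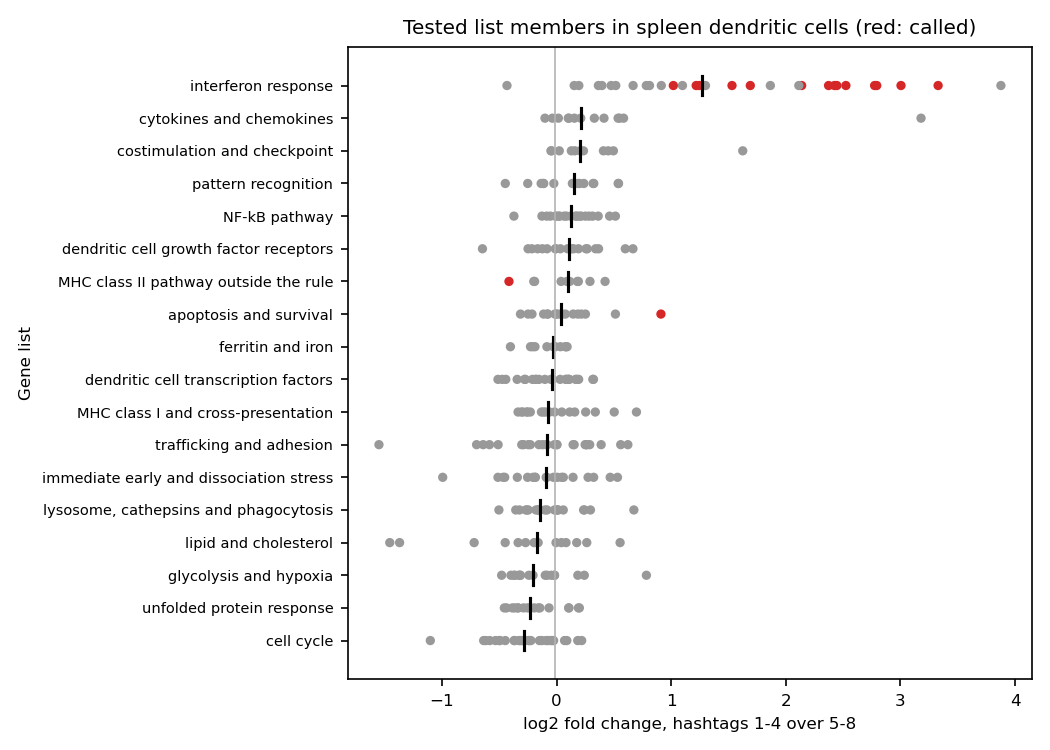
Log2 fold changes, hashtags 1 to 4 over 5 to 8, of the tested members of 18 gene lists (rows); each point is a gene, red where called, and black bars are list medians. The grey line is the median of all genes, -0.01; the interferon response list has a median of 1.27 and the cell cycle list one of -0.28.

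The contrast was also examined within each subset and in the remaining spleen cells of the same mice. In cDC1-like cells 6191 genes were tested, with 52 higher (0.84%) and 24 lower (0.388%) in hashtags 1 to 4. In cDC2-like cells 4263 were tested, with 2 higher (0.0469%) and 1 lower (0.0235%); the difference in calls between the subsets was not tested, and cDC2-like sums hold fewer cells. Of the 51 genes called in all dendritic cells, 40 were testable in cDC1-like and 36 in cDC2-like cells, and all of these kept their sign, which the shared cells favour. The calls in cDC2-like cells were Ifi27l2a (2.80, edgeR adjusted p = 0.00743), Slfn8 (3.61, 0.0118) and, lower, Gm26740 (-3.03, 0.00743). Ifi207 had a log2 fold change of 3.59 in cDC1-like cells (edgeR adjusted p = 1.01e-05) and 1.81 in cDC2-like cells (adjusted p = 0.34).

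In the 5070 other spleen cells, 4276 of which held neutrophil markers, 10882 genes were tested, with 315 higher (2.89%) and 126 lower (1.16%) in hashtags 1 to 4. Of the 30 interferon response genes tested in dendritic cells, 25 were called higher there and none lower, with a median log2 fold change of 1.34 beside 1.27 in dendritic cells. The 30 genes were chosen by a filter on dendritic cell counts, which some passed only through hashtags 1 to 4. The 2 medians are therefore not an independent comparison. Both cell sets come from the same mice and library. The difference between the 2 sets was tested in 1 fit over 16 sums with hashtag as a block, and 2 of 7700 genes (0.026%) passed. Slfn5 differed more in the other cells, by 4.70 ± 0.18 on the log2 scale, than in dendritic cells, by 2.14 ± 0.20 (difference of dendritic minus other cells -2.56 ± 0.28, edgeR adjusted p = 0.00289). Ifi207 differed more in dendritic cells, by 2.94 ± 0.23, than in the other cells, by 0.77 ± 0.18 (difference 2.23 ± 0.27, edgeR adjusted p = 0.00508). Ifi27l2a had a log2 fold change of 5.46 ± 0.24 in other cells and 3.0 ± 0.38 in dendritic cells, a difference that did not pass (edgeR adjusted p = 0.204). With neutrophil-marker cells alone as the other set, 7 genes passed, Slfn5 and Ifi207 among them.

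**Figure D4:**
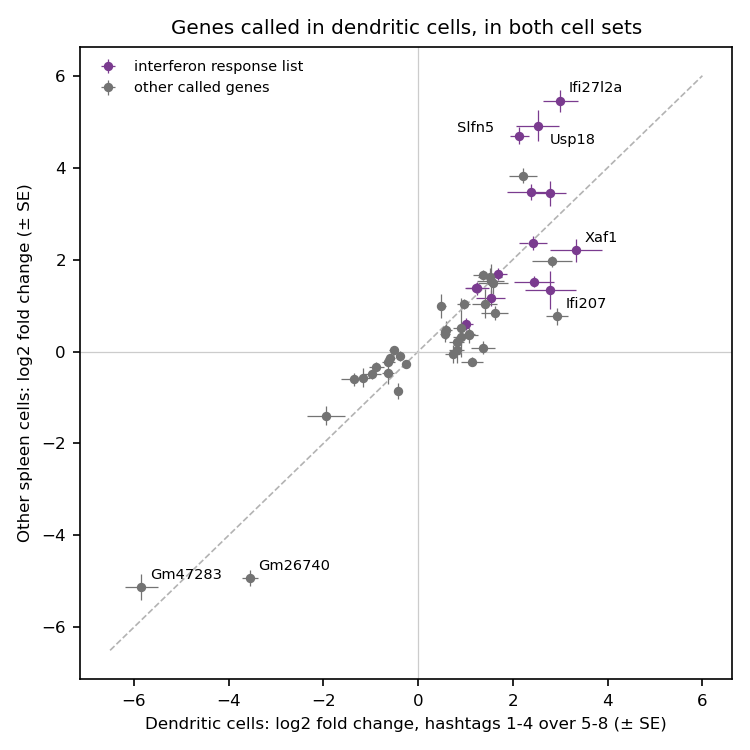
Log2 fold change, hashtags 1 to 4 over 5 to 8, of the 51 genes called in dendritic cells (horizontal axis) and in the other spleen cells (vertical axis), with SE bars; purple marks the interferon response list and the dashed line equal values. Slfn5 lies at 2.14 and 4.70 and Ifi207 at 2.94 and 0.77, on opposite sides of the line.

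RNA from other cells could enter these sums, so cells with at least 3 markers of neutrophils, B, T or red cells were left out. These were 342 of the 540 dendritic cells, among them 7 of the 14 in hashtag 5. In the cells that remained, 3746 genes could be tested, with 14 higher and 10 lower. Of these, 7 higher and 6 lower genes were also called with all cells. Ifi27l2a (4.62, edgeR adjusted p = 6.17e-05), Slfn5 (3.28, 0.000249), Ifi207 (4.34, 0.00536), Rnf213 (2.39, 0.00536), Eif2ak2 (2.07, 0.0356) and Trim30a (1.12, 0.0444) were still called, with log2 fold changes at least as large as with all cells. Of the 33 called genes that could be tested in these fewer cells, 13 were still called and 20 were not, all with the same sign. Irf9 (1.38, edgeR adjusted p = 0.0914), Parp14 (1.60, 0.0842), Ly6e (0.57, 0.0842), Sp100 (0.90, 0.0842) and Acadl (1.28, 0.108) kept their size or nearly so without passing. Values lay closer to 0 for Trim30d (0.59, edgeR adjusted p = 0.463), Cadm1 (0.42, 0.654), Syne1 (0.43, 0.513) and Ifi30 (-0.20, 0.541).

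Surface proteins were read with 18 antibodies, scaled to 10000 antibody counts per sum. None passed Benjamini-Hochberg adjustment, and 1 had an unadjusted exact permutation p under 0.05. The smallest exact p that 4 against 4 allows is 0.0286. A single antibody among 18 therefore could not pass the adjustment, however large its difference. CD64, the high-affinity Fc gamma receptor, stood at 7.91, 8.09, 6.77 and 11 per 10000 in hashtags 1 to 4, against 2.67, 5.42, 4.09 and 6.09 in hashtags 5 to 8 (exact permutation p = 0.0286, adjusted p = 0.294). Its mean count was 1.02 per cell, and its exact p was 0.0857 as counts per cell and 1 by the median cell (permutation tests). As counts per cell, Ly6C (log2 difference -0.45), CD44 (-0.34) and CD24 (-0.52) each had an unadjusted exact permutation p of 0.0286. CD24 also had this p by the median cell (-0.81). These values are negative, which means lower counts in hashtags 1 to 4. The antibody against MHC class II stood at 3500, 3545, 3340 and 2936 per 10000 in hashtags 1 to 4 and at 4908, 3431, 2945 and 2763 in hashtags 5 to 8, with full overlap (exact permutation p = 0.914). Hashtag 5, with the highest sum of mature dendritic cell markers, was highest. The cKit antibody, on which the sort relied, stood at 116, 118, 98.4 and 116 per 10000 in hashtags 1 to 4, against 34.4, 84.0, 110 and 99.6 in hashtags 5 to 8 (exact permutation p = 0.0857, adjusted p = 0.294). Kit RNA in the dendritic cells averaged 137 ± 7.32 and 102 ± 26.2 CPM (SD, n = 4 each; log2 0.34 ± 0.15, edgeR adjusted p = 0.394).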

How the data were processed

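Per the labels' protocols, blood, bone marrow, spleen and tumor cells were tagged, sorted and run on the 10x platform. The authors deposited raw UMI counts of 32285 genes and 28 antibodies for all 4 tissues in one matrix, made with Cell Ranger 7.0.1 per the file headers on the mm10 build given in the submitters' processing notes. The number at the end of each barcode was matched to the number in the library name, with 3 for spleen, a tie no source states outright. No doublet caller was run; 77 of 617 rule cells without a single hashtag were left out. Counts were summed per hashtag and tested in edgeR 4.0.16 (R 4.3.3) with library totals as size; this gives every adjusted p of a gene. The test was first checked on simulated counts. Sums ranged from 219223 to 3028519 UMIs, so hashtag 5 is the least precise. Surface antibody and cell-level values were tested with exact permutation tests over 70 splits. Alternatives were TMM, DESeq2 1.42.0, other filters, cell rules and omitted hashtags. Genes named were the 12 largest called increases, the largest called decreases and some of the leading list members. Fewer than 12 called decreases met the filters on level and gene type. The other called genes were added after their values were seen. The cells, lists and rule were chosen with earlier results of these data known. Values of 1 interferon list gene and 1 marker gene are not reported here.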

Additional observations from a re-analysis of the deposited data

Results flagged for a closer look

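Of 168 groups of 4 hashtags examined for a value far from the other 3, 14 held one, where chance gives about 1 in 20. Among genes in hashtags 1 to 4, Ifi207 was high in hashtag 2 (129 CPM), Gm34084 in hashtag 4 (122 CPM), Dpp4 was low in hashtag 3 (321 CPM) and Oasl2 was at 0 CPM in hashtag 1. In hashtags 5 to 8, Gm47283 was low in hashtag 5 (45.6 CPM) and Mki67 high in hashtag 6 (280 CPM). The cDC1-like share was low in hashtag 3 (50.6%). Per 10000 antibody counts in hashtags 1 to 4, cKit was low in hashtag 3 (98.4), CD115 was high in hashtag 4 (82.5), and CD14 was high in hashtag 1 (31.2). In hashtags 5 to 8, CD11a (395) and CD16/32 (31.7) were low in hashtag 5, and CD11b (427) and CD69 (7.43) were high in hashtag 6. Hashtag 5 rests on 14 cells.

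The contrast differed between dendritic and other spleen cells for Ifi207 (2.23 on the log2 scale, dendritic minus other cells) and Slfn5 (-2.56), each by edgeR's interaction test. Hashtag antibody 10, outside the 8 hashtags used, had 238 counts over all 6105 spleen cells.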

How the results depend on the processing

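No paired analysis was possible because hashtags 1 to 4 and 5 to 8 carry different numbers and no label pairs them. The 51 called genes gave 787 values under the alternatives; 497 were called in the same direction, 290 kept the direction without a call, and 0 changed sign. Genes higher and lower numbered 37 and 14; 22 and 4 with a hashtag margin of 10, 4 and 5 with cells thinned to 1000 UMIs (718 genes tested), 2 and 1 in cDC2-like cells, and 10 to 76 and 3 to 35 without a hashtag. Genes higher numbered 20 with at least 400 UMIs and 14 without cells carrying other markers; genes lower numbered 27 with DESeq2 and 24 in cDC1-like cells. Not all of these were calls of the main fit. Higher and lower genes shared with it numbered 21 and 12 with DESeq2. They numbered 1 and 2 with thinned cells, and 7 and 6 without cells carrying other markers. The interaction gave 7 genes with neutrophil-marker cells alone. The dendritic share differed by 6.54 points when thinned without Flt3 (p = 0.0571, exact permutation), an alternative added after seeing the data, as were the other thinned shares and the share outside neutrophil-marker cells; without a hashtag the difference was 4.63 to 6.71. The cDC1-like difference was -14.8 to -4.86 points without a hashtag. Antibodies with an unadjusted p under 0.05 numbered 3 as counts per cell and 0 to 2 without a hashtag. Uncalled genes changed sign: Bst2 to -0.25 in cDC2-like cells; Irf1 to 0.57 without cells carrying other markers and 0.10 in cDC2-like cells; Ifnar1 to 0.0055 with TMM, 0.018 with the margin of 10, 0.72 without cells carrying other markers, 0.35 in cDC1-like cells, and -0.13 to 0.11 without a hashtag. The causes were not tested. The 14 cells of hashtag 5 limit the precision of its sum.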
